A study of Rattus norvegicus with 6 samples.

Results

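The genes described here are the NFκB subunits, their IκB inhibitors and the kinase that releases them, in PAIII prostate tumors grown in rats. They were found by symbol: 10 genes were looked for among the 17557 rows of the expression table, and 6 have a row, namely Nfkb2, Rela, Nfkbia, Nfkbib, Nfkbie and Ikbkb. Each is on a single row, and all 6 passed the minimum mean of 1 FPKM used for testing, as 10749 rows did. Nfkb1, Rel, Relb and Tnfaip3 were not analysed here. The unit, FPKM, is fragments per kilobase of transcript, scaled by the mapped fragments of the library, so levels can be compared between genes.

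NFκB is a family of transcription factors that bind DNA as dimers. In resting cells the dimers are held in the cytoplasm by IκB proteins. Signals from receptors for TNFα, interleukin-1 or bacterial products activate the IκB kinase, IKK, which marks IκB for destruction, and the freed dimer switches on inflammatory genes, among them the gene for its own inhibitor. Most of this control acts on proteins, through phosphorylation and degradation, which messenger RNA levels do not show. The cardiac glycoside digitoxin, an inhibitor of the Na,K-ATPase, was given in this study because it had been found to block signaling from TNFα to NFκB in cultured cells, and the comparison asks whether the messenger RNAs of this machinery differed in the treated tumors.

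The PAIII line was derived from a hormone-resistant prostate tumor of a Lobund-Wistar rat and is passaged from rat to rat. Cells were injected under the skin of the flank of rats of 2 months of age. From day 10 the treated rats received 0.03 mg/kg of digitoxin daily by intraperitoneal injection and the controls received vehicle, and tumors were taken on day 40. RNA was sequenced from 3 digitoxin tumors (A1, A6 and A12, replicates 1 to 3) and 3 vehicle tumors (B5, B9 and B14, replicates 1 to 3), each from a different rat, with 10 punches of 1 mm from viable regions pooled per tumor. All 6 rats carried the same transplanted line. They were picked after the rats of the study had been ordered by serum IL-6 and CINC-1, with low treated rats and high controls favoured, so treatment and serum level cannot be told apart.

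The libraries differed in more than treatment. The summed level of 9 lung alveolar markers (10 looked for) lay between 27883 and 84799 FPKM in A1, A6, B5 and B9, against 40.8 in A12 and 62.6 in B14, where Sftpb, Sftpa1 and Lamp3 were listed at 0. By group, this sum ran from 40.8 to 84799 FPKM with digitoxin and from 62.6 to 36044 with vehicle. The sum of 5 airway secretory markers ran from 20916 to 130820 FPKM in the same 4 tumors and was 2.31 in A12 and 1.51 in B14. Neutrophil, endothelial, and T and NK cell marker sums were also lower in A12 and B14 than in any other tumor, and fibroblast and cell cycle sums were higher. General epithelial markers, 5 of 6 with a row, summed to between 1408 FPKM (A6) and 4817 (A12), and whether tumor or lung epithelium made them was not tested. In bulk tissue, fewer cells of a type and less RNA per cell cannot be told apart. A12 and B14 are 1 tumor of each group, and for the 6 NFκB genes values within each kind of tumor are also given.

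The inhibitor genes include textbook targets of NFκB itself, so the promoters of those that hold a match to the κB consensus, the sequence bound by NFκB dimers, are shown here. Promoters of 5 of the 6 genes were taken from RefSeq (assembly GRCr8), with 250 bases before the transcription start and 50 after. Both strands were searched for the consensus of 10 bases, with no mismatch, and 3 of the 5 promoters held it, each once. Capitals mark the match, and each promoter is read in the direction of its gene.
Nfkb2, chr1:255108124-255108423, plus strand: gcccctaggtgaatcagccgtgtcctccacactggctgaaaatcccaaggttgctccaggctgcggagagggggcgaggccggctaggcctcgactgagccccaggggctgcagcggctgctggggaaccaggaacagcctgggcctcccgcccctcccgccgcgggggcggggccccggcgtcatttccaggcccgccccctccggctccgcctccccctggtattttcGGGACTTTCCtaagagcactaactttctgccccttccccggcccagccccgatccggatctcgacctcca
Nfkbia, chr6:78597023-78597322, minus strand: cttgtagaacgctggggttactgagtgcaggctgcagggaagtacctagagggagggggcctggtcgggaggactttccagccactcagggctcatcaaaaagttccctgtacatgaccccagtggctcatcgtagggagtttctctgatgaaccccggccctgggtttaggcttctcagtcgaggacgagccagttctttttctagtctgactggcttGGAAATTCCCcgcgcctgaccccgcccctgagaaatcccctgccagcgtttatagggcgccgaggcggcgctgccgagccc
Nfkbie, chr9:22947823-22948122, minus strand: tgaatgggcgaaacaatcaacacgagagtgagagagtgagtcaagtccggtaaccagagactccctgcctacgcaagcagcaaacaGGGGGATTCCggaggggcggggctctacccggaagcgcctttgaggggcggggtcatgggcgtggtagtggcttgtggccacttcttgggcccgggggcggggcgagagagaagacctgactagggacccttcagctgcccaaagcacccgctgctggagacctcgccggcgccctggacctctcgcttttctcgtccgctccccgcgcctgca
The match of Nfkb2, GGGACTTTCC, starts 20 bases before the transcription start. That of Nfkbia lies 31 bases before the start and reads GGGAATTTCC on the opposite strand. That of Nfkbie, GGGGGATTCC, starts 164 bases before the start. No match was found in this window of Rela or Nfkbib. Over all 33469 promoters of this length, 1400 (4.18%) held a match, as did 424 (5.08%) of the 8346 whose genes were tested here. A match is a description of the letters, not evidence of binding.

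No difference between digitoxin and vehicle tumors was detected for any of the 6 genes. By limma on log2(FPKM + 1), none had an adjusted p under 0.05, as for all tested rows (0% called), and the smallest adjusted p of any row was 0.926. None of the 6 had an unadjusted p under 0.05 either, against 36 of all rows (0.335%), and in none were the groups apart, whereas 4.16% of all rows had groups that did not overlap. The mean was lower with digitoxin for 4 of the 6, a direction shared by 64.9% of all rows. When the libraries were scaled by the median of ratios, which raised the median log2 fold change of all rows by 0.18, only 1 of the 6 was lower. The group labels of A1 and B9 were questioned in earlier work on these data, and this was not settled here. Exchanging them would turn the difference of Nfkb2 (to 0.0199 on the log2 scale) and of Ikbkb (to 0.0679), leaving 2 of the 6 lower. With both left out, none of the 6 passed the test. The median log2 fold change of the 6 was -0.0809, against -0.16 for all rows tested. With 3 tumors against 3, the smallest p that an exact two-sided permutation test of a single gene allows is 0.1.

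**Figure D1:**
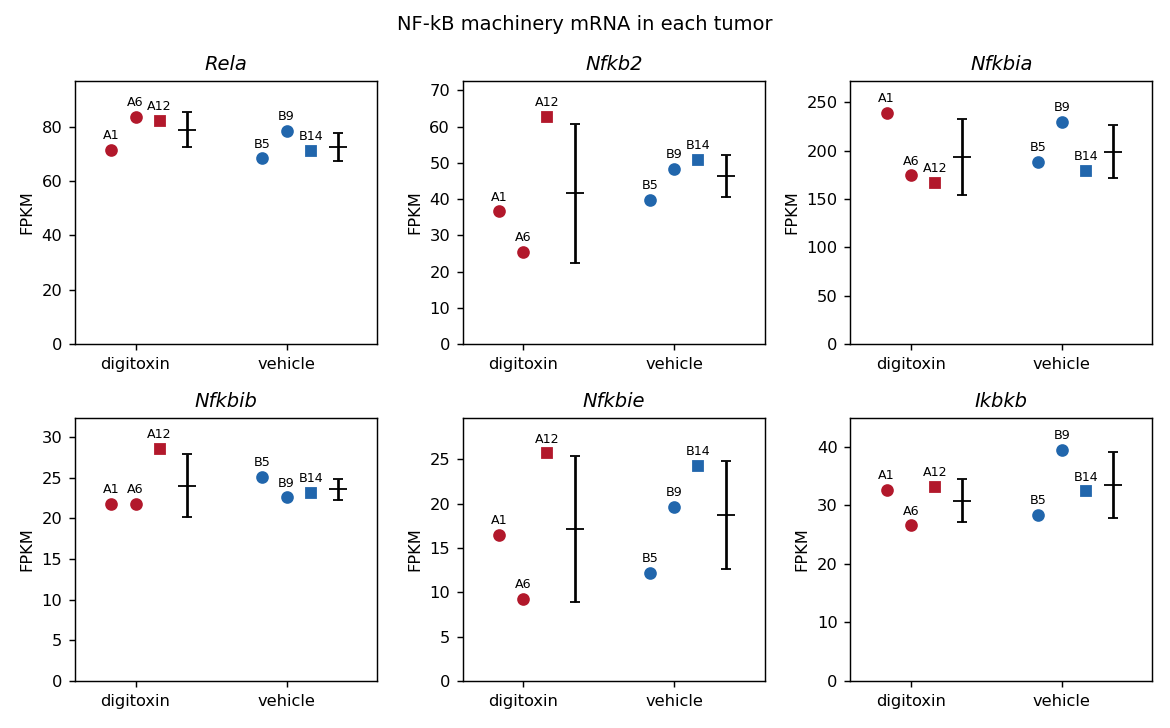
Level (FPKM, vertical axes from 0) of each NFκB gene in the 3 digitoxin and 3 vehicle tumors, with 1 panel per gene. Points are tumors, squares are A12 and B14, and the black dash and whiskers beside each group give mean ± SD (n = 3). The groups overlap in every panel, and both squares lie above all circles for Nfkb2 and Nfkbie.

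Among the subunits, Rela encodes p65, the subunit that carries the transactivation domain of the classical dimer. Rela (chr1:227928091-227938571 in the positions of the table, whose rat build is not given in the sources used here) stood at 71.4, 83.4 and 81.9 FPKM in A1, A6 and A12 and at 68.2, 78.3 and 71.1 in B5, B9 and B14. The treated tumor A1 lay among the controls and above 2 of them, and the whole range over 6 tumors was 1.22-fold. The means were 78.9 ± 6.56 FPKM with digitoxin and 72.5 ± 5.20 with vehicle (SD, n = 3 each). The log2 fold change of 0.12 (SE 0.18, adjusted p = 0.931, limma) had a 95% interval from -0.33 to 0.57, which spans 0.796-fold to 1.48-fold. Rela was the only one of the 6 whose mean stayed on the same side in all 15 alternatives tried, between 0.0761 and 0.31 on the log2 scale. Some of these could not move the estimate of any gene: no filter, no variance trend, the replicate block and the kind of tumor as a term. Rela passed the test in none of the 14 alternatives that give a p.

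Nfkb2 encodes p100, which acts as an inhibitor of the IκB type until it is cut to p52, the partner of RelB in the alternative pathway. Its level (chr1:273483942-273490197) was 36.6, 25.3 and 62.8 FPKM in A1, A6 and A12 and 39.7, 48.3 and 50.8 in B5, B9 and B14. The treated group held both the lowest tumor, A6, and the highest, A12, with all controls between. The means were 41.6 ± 19.2 FPKM with digitoxin and 46.3 ± 5.80 with vehicle. The log2 fold change was -0.24 (SE 0.36, adjusted p = 0.931, limma), with a 95% interval from -1.10 to 0.62, or 0.465-fold to 1.54-fold. Leaving out A12 gave -0.58 and leaving out A6 gave 0.0580, so the direction rested on A6.

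Of the inhibitors, Nfkbia encodes IκBα, the one that NFκB induces fastest and that ends a response. It had the highest level of the 6 genes. Nfkbia (chr6:85803989-85807223) stood at 239, 174 and 167 FPKM in A1, A6 and A12 and at 188, 229.9 and 179 in B5, B9 and B14. The highest tumor of the 6 was the treated A1, and the lowest the treated A12. The means were 193 ± 39.4 FPKM with digitoxin and 199 ± 27.2 with vehicle. The log2 fold change of -0.0523 (SE 0.23, adjusted p = 0.968, limma) had a 95% interval from -0.61 to 0.51, and median-of-ratios scaling turned it to 0.14.

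Nfkbib encodes IκBβ, a slower inhibitor. Its level (chr1:88122204-88129977) was 21.8 FPKM in both A1 and A6 and 28.5 in A12. The vehicle tumors B5, B9 and B14 stood at 25.1, 22.6 and 23.1 FPKM. The controls lay within the range of the treated tumors. The means of 24.0 ± 3.88 and 23.6 ± 1.31 FPKM gave a log2 fold change of 0.0162 (SE 0.23, adjusted p = 0.992, limma), with an interval from -0.53 to 0.56.

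Nfkbie encodes IκBε, a further inducible inhibitor, and was the most variable of the 6. Nfkbie (chr9:16717125-16723961) stood at 16.5, 9.21 and 25.7 FPKM in A1, A6 and A12 and at 12.2, 19.7 and 24.3 in B5, B9 and B14. As for Nfkb2, the treated tumors A6 and A12 were the extremes of the 6. The means were 17.1 ± 8.25 FPKM with digitoxin and 18.7 ± 6.10 with vehicle. The log2 fold change of -0.18 (SE 0.45, adjusted p = 0.950, limma) had the widest interval of the 6 genes, from -1.26 to 0.90, or 0.418-fold to 1.87-fold, and was 0.00445 with median-of-ratios scaling.

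Ikbkb encodes IKKβ, the catalytic kinase of the classical pathway. Its level (chr16:73809852-73863636) was 32.7, 26.5 and 33.1 FPKM in A1, A6 and A12 and 28.4, 39.5 and 32.3 in B5, B9 and B14. The lowest tumor was treated and the highest a control, and of the other 4 both controls lay below both treated tumors, so the groups overlapped. The means were 30.8 ± 3.65 and 33.4 ± 5.62 FPKM, and the log2 fold change was -0.11 (SE 0.23, adjusted p = 0.942, limma) with an interval from -0.67 to 0.45. With median-of-ratios scaling it was 0.0808.

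**Figure D2:**
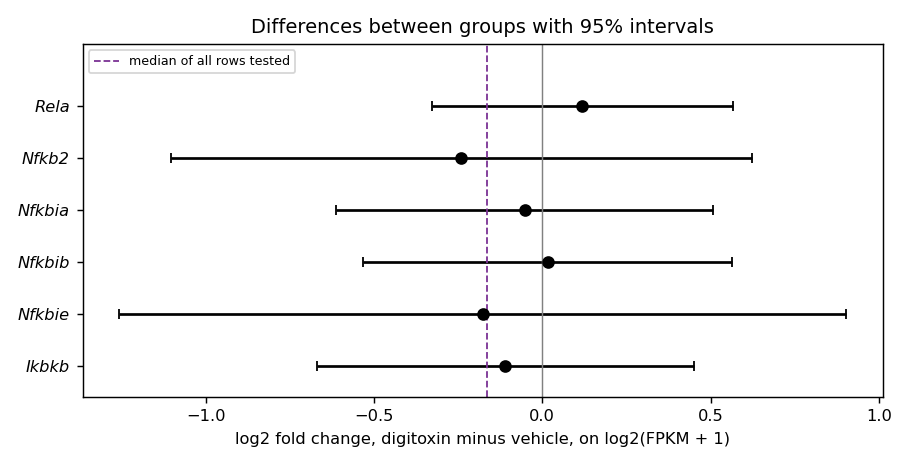
Log2 fold change (digitoxin minus vehicle, on log2(FPKM + 1), horizontal axis) of each NFκB gene. Points are limma estimates from 3 tumors per group and bars are 95% intervals, all of which include 0. The dashed line is the median of all rows tested, -0.16.

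By level, the order was Nfkbia, Rela, Nfkb2, Ikbkb, Nfkbib and Nfkbie, and even the last had a higher mean than 51.6% of the rows tested. Nfkbia was above Rela in 6 of 6 tumors, by 2.04-fold to 3.34-fold. Rela was above Nfkb2 in 6 of 6, by 1.31-fold to 3.29-fold. Ikbkb was above Nfkbib in 6 of 6, by 1.13-fold to 1.75-fold. The remaining neighbours were not separated in every tumor: Nfkb2 was above Ikbkb in 5 of 6 tumors, with ratios from 0.955 to 1.90, and Nfkbib above Nfkbie in 5 of 6, with ratios from 0.951 to 2.36.

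The balance of inhibitor to subunit overlapped between the groups too. The ratio of Nfkbia to Rela was 3.34, 2.09 and 2.04 in A1, A6 and A12 and 2.76, 2.94 and 2.51 in B5, B9 and B14. The treated tumors held the extremes, with every control between A1 and A6. The ratio of Nfkb2 to Rela was 0.513, 0.304 and 0.766 with digitoxin and 0.582, 0.616 and 0.715 with vehicle, again with the controls between the treated extremes. The 3 inhibitor messenger RNAs together summed to 277, 205 and 221 FPKM in the treated tumors and 226, 272 and 226 in the controls. Nfkbia made up 75.5% to 86.2% of that sum with digitoxin and 79.0% to 84.5% with vehicle. The share of Nfkbie was highest in A12 (11.6%) and B14 (10.7%), and it was between 4.48% and 7.23% in the other 4 tumors.

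**Figure D3:**
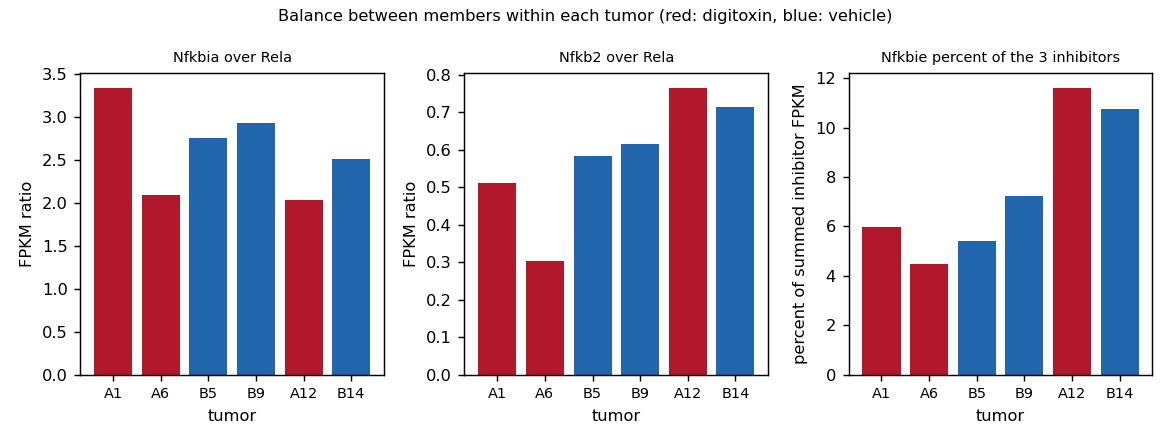
Ratios of FPKM within a tumor (vertical axes): Nfkbia to Rela, Nfkb2 to Rela, and the percent of Nfkbie in the sum of the 3 inhibitors. Each bar is a tumor, red for digitoxin and blue for vehicle, with A12 and B14 at the right. The groups overlap in each panel, and the percent of Nfkbie is highest in A12 and B14.

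The tumors with low lung markers, A12 and B14, stood above the other 4 for Nfkb2 and Nfkbie, that is for 2 of the 6 genes, while 30.1% of all rows showed that pattern. The 2 tumors averaged 1.52-fold the other 4 for Nfkb2 and 1.73-fold for Nfkbie, and between 0.831-fold (Nfkbia) and 1.13-fold (Nfkbib) for the rest. None of the 6 had both tumors below the other 4, a pattern of 29.3% of all rows. Between A12 and B14 themselves, which differ in treatment, the log2 difference (A12 minus B14) was 0.30 for Nfkb2, 0.20 for Rela, -0.0993 for Nfkbia, 0.29 for Nfkbib, 0.0776 for Nfkbie and 0.0309 for Ikbkb. Among the 4 tumors rich in lung markers, the log2 fold change was -0.51 (SE 0.31) for Nfkb2, 0.0763 (SE 0.25) for Rela, -0.0287 (SE 0.28) for Nfkbia, -0.12 (SE 0.29) for Nfkbib, -0.31 (SE 0.44) for Nfkbie and -0.18 (SE 0.31) for Ikbkb, none past the test. The sign thus differed between the kinds of tumor for Nfkb2, Nfkbib, Nfkbie and Ikbkb, a difference that was not tested. A12 and B14 are split evenly between the groups, so the kind of tumor as a term could not move a log2 fold change, only its SE. With that term the fit gave -0.24 (SE 0.27) for Nfkb2 and -0.18 (SE 0.32) for Nfkbie, and no gene of the 6 passed the test. The part of lung or stromal tissue in these levels was not tested. Tumor A6, with the highest lung marker sum and the lowest cell cycle sum (56.4 FPKM against at least 292 elsewhere), was the lowest of the 6 tumors for Nfkb2, Nfkbib, Nfkbie and Ikbkb, a position it held in 50.4% of all rows, but the highest for Rela.

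**Figure D4:**
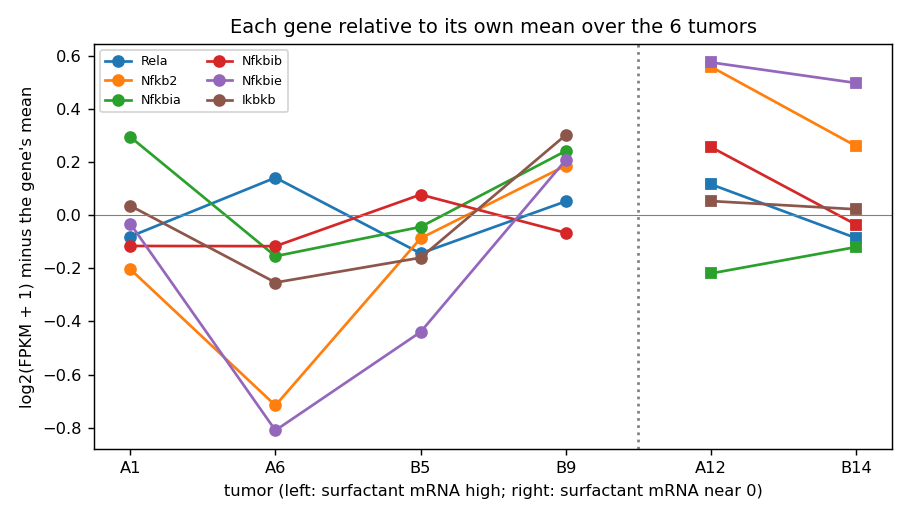
Level of each NFκB gene in each tumor relative to its own mean, on the log2(FPKM + 1) scale (vertical axis). The tumors rich in lung markers are at the left of the horizontal axis and A12 and B14 at the right, and lines only link the points of a gene. Nfkb2 and Nfkbie are lowest in A6 and highest in A12, and Rela moves least.

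Over the 6 tumors, irrespective of treatment, Rela, Nfkbib, Ikbkb and Nfkbia varied less between tumors than Nfkb2 and Nfkbie. The SD of log2(FPKM + 1) was 0.12 for Rela, with only 1.78% of tested rows less variable, 0.14 for Nfkbib, 0.19 for Ikbkb, 0.22 for Nfkbia, 0.44 for Nfkb2 and 0.54 for Nfkbie. The median of the 6 was 0.204, against 0.508 for all rows, and 5 of the 6 were below that value. Nfkb2 and Nfkbie lay 0.469 apart as centred profiles (Euclidean distance over 6 tumors on the log2 scale), Rela and Nfkbib 0.391 and Nfkbia and Ikbkb 0.434, and the most distant pair was Nfkbia and Nfkbie at 1.31. The rows with profiles nearest to each gene by the same distance were Cth, Fam222b and Cryz for Nfkb2 (the nearest, Cth, at 0.112), Mark4, Uap1l1 and LOC306766 for Rela (Mark4 at 0.0535), and Vps39, Wdr91 and Enkd1 for Nfkbia (Vps39 at 0.131). They were Copz1, Timm17a and Phax for Nfkbib (Copz1 at 0.0973), Cnot3, Tpm3 and Bcorl1 for Nfkbie (Cnot3 at 0.148), and Sh3gl1, Pank4 and Sbno2 for Ikbkb (Sh3gl1 at 0.0924). None of these is another of the 6 genes, and such likeness over 6 tumors is a description.

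The remaining genes of the pathway were taken from 4 lists, and none of their tested genes had an adjusted or an unadjusted p under 0.05. The first holds the other IKK subunits, the IKK-related kinases and the nuclear IκB-like proteins. All 7 of its 8 genes with a row were tested, and the mean was lower with digitoxin for 5 and higher for 2 (median log2 fold change -0.17), or lower for 3 with median-of-ratios scaling. Of all rows tested without that scaling, 64.9% were lower, with a median of -0.16. Chuk, which encodes IKKα, stood at 16.4, 7.02 and 29.1 FPKM in A1, A6 and A12 and at 23.2, 23.6 and 29.7 in B5, B9 and B14 (log2 fold change -0.71, SE 0.50). Ikbkg, which encodes the regulatory subunit NEMO, stood at 4.36, 0.311 and 11.4 FPKM with digitoxin and 7.98, 9.40 and 13.0 with vehicle (-1.30, SE 0.81). Both were lowest in A6 and higher in A12 and B14 than in the rest of their own group, and the groups overlapped. Without A12, Ikbkg gave -2.04 (unadjusted p = 0.0203), Chuk -1.16 (0.0277) and Nfkbiz, an inducible nuclear IκB, -1.003 (0.0132), each with an adjusted p of 0.252 by limma. In that setting 2114 of all rows (19.7%) had an unadjusted p under 0.05. Without A6, none of the 7 genes did. Among the 4 tumors rich in lung markers Ikbkg gave -1.87 (SE 0.70) and Nfkbiz -0.92 (SE 0.34). The IκB-like genes Bcl3 and Nfkbil1 had the largest positive log2 fold changes of the list, 0.12 (SE 0.27) and 0.40 (SE 0.41).

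Upstream, the adaptors and kinases that carry the signal from TNF, interleukin-1 and antigen receptors to IKK had 19 of 25 genes tested, 8 higher and 11 lower, with a median log2 fold change of -0.00892. Of all rows tested, 64.9% were lower. Median-of-ratios scaling left 7 of the 19 genes lower. The lowest were Card10, a scaffold of the CARD and MALT1 complex (-1.01, SE 0.95), and Irak1, a kinase downstream of interleukin-1 and Toll-like receptors (-0.75, SE 0.61). The highest were Tab1, a partner of the kinase TAK1 (0.30, SE 0.26), and Card9, an adaptor of myeloid cells (0.43, SE 0.74). Card9 stood at 12.7, 19.6 and 2.25 FPKM in A1, A6 and A12 and at 7.55, 8.40 and 3.67 in B5, B9 and B14. Without A12, Card10 gave -1.88 and Card9 1.22, each with an adjusted p of 0.252 (limma). Without A6, no gene of this list had an unadjusted p under 0.05 by limma. A12 and B14 were the 2 lowest tumors for Card9, a position they held in 29.3% of all rows. They were also lowest for the lung alveolar, airway, neutrophil, endothelial, and T and NK cell marker sums, and a link to Card9 was not tested.

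A further list of regulators outside the 6 holds genes that restrain the pathway, such as deubiquitinases and adaptors of A20, and also Btrc, Cul1 and Skp1, subunits of the ligase that marks IκB for destruction and so frees the dimer. It had 12 of 16 genes tested, 3 higher and 9 lower (median log2 fold change -0.35), where 64.9% of all rows were lower (median -0.16). Median-of-ratios scaling gave the list the same counts and a median of -0.16. The median was -0.0970 without A6, with 8 lower, and -0.64 without A12. The 3 ligase subunits were all among the lower genes, and of the other 9 genes 6 were lower and 3 higher. The lowest were the ubiquitin ligase gene Itch (-1.73, SE 0.99) and Cul1, the scaffold of the ligase that marks IκB (-0.997, SE 0.627). Itch stood at 6.54, 0.312 and 18.9 FPKM in A1, A6 and A12 and at 11.6, 17.3 and 29.8 in B5, B9 and B14. With the replicate number as a block, Itch and Cul1 had unadjusted p-values of 0.0358 and 0.0333 and an adjusted p of 0.638 (limma), in a setting where 4.15% of all rows had an unadjusted p under 0.05. Without A12, Itch gave -2.61 and Cul1 -1.65 (limma adjusted p = 0.252 for each), and among the 4 tumors rich in lung markers they gave -2.27 (SE 0.83) and -1.47 (SE 0.40). Without A6, no gene of this list had an unadjusted p under 0.05 by limma. The highest were Tnip1, an A20-binding inhibitor (0.23, SE 0.21), and Commd1, which promotes turnover of p65 (0.21, SE 0.21). Tnip1 was the only one of the 12 genes whose groups did not overlap, where 4.16% of all rows had groups apart, with 66.4, 86.8 and 63.2 FPKM in the treated tumors and 59.6, 62.9 and 59.9 in the controls, and its adjusted p was 0.926 (limma). The lowest treated tumor, A12, and the highest control, B9, were nearly level.

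Of 30 inflammatory genes that NFκB is known to induce, 25 were tested. With digitoxin 11 were higher and 14 lower (median log2 fold change -0.0237), where 64.9% of all rows were lower. The split moved with single tumors: 20 were lower without B14, 19 without A1 and 18 without A6, but 12 without A12. Median-of-ratios scaling turned it to 14 higher and 11 lower, with 1 gene, Csf2, at an unadjusted p of 0.0473 (limma adjusted p = 0.919). In that setting 38 of all rows (0.354%) had an unadjusted p under 0.05. The lowest were the neutrophil chemokine Cxcl2 (-2.15, SE 1.89) and the granulocyte growth factor Csf3 (-1.29, SE 1.51). Cxcl2 stood at 3.14, 0.311 and 93.7 FPKM in A1, A6 and A12 and at 24.6, 6.50 and 234 in B5, B9 and B14. The treated tumors A1 and A6 were below B5 and B9, A12 was below B14, and both tumors low in lung markers were far above the other 4. With the replicate number as a block, Cxcl2 had the same log2 fold change with SE 0.36 and an unadjusted p of 0.000756, and its adjusted p was 0.638 (limma). With the kind of tumor as a term these were SE 0.63, 0.0129 and 0.572. An unadjusted p under 0.05 was reached by 4.15% of all rows with the block and 3.95% with that term. Csf3 stood at 5.90, 0.319 and 88.6 FPKM with digitoxin and 14.1, 14.1 and 51.5 with vehicle. Its mean FPKM was thus higher with digitoxin (31.6 ± 49.5 against 26.6 ± 21.6) although its mean log2 level was lower, since A12 was above B14 while A1 and A6 were below B5 and B9. Among those 4 tumors Csf3 gave -2.32 (SE 0.78) and Cxcl2 -2.57 (SE 0.79), and without A12 alone they gave -2.92 and -3.93 (limma adjusted p = 0.252 for each). Without A6, no gene of this list had an unadjusted p under 0.05 by limma. Ccl2, a monocyte chemokine gene, stood at 32.9, 7.45 and 61.7 FPKM with digitoxin and 72.6, 23.5 and 120.1 with vehicle (-1.20, SE 0.89). With the block its SE was 0.25, its unadjusted p 0.0022 and its adjusted p also 0.638 (limma). The highest were the adhesion molecule gene Icam1 (0.61, SE 0.78) and Csf2, which encodes a growth factor for granulocytes and macrophages (0.51, SE 0.29). Icam1 stood at 144, 233 and 39.0 FPKM with digitoxin and at 59.9, 156 and 39.3 with vehicle, lowest in A12 and B14. Csf1, the macrophage growth factor gene, was the only one of the 25 with groups apart, a share near the 4.16% of all rows, at 8.38, 8.37 and 7.16 FPKM with digitoxin and 10.3, 11.2 and 10.9 with vehicle (-0.40, SE 0.25, adjusted p = 0.926, limma).

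The lists differed in how far their genes varied between tumors. The median SD over the 6 tumors on the log2 scale was 0.204 for the 6 NFκB genes, 0.265 for the upstream adaptors and kinases, 0.443 for the list with restraining genes and the IκB ligase, 0.504 for the IKK partners and 0.744 for the induced genes. Of the 25 induced genes, 6 were above the other 4 tumors in both A12 and B14, among them Cxcl2, Csf3 and Sod2, and 9 were below, among them Ccl5, Icam1 and Cfb. Over all rows tested, 30.1% were above in both and 29.3% below, so both patterns are common in the whole table. The complement gene Cfb had the highest SD, 3.13, with 3.66 FPKM in A12 and 3.92 in B14 and between 221 and 436 in the other 4, among which its log2 fold change was 0.77 (SE 0.26, limma adjusted p = 0.392). Gadd45b had the lowest, 0.134. The marker sums that moved with A12 and B14 are those given above, and their part in these levels was not tested.

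**Figure D5:**
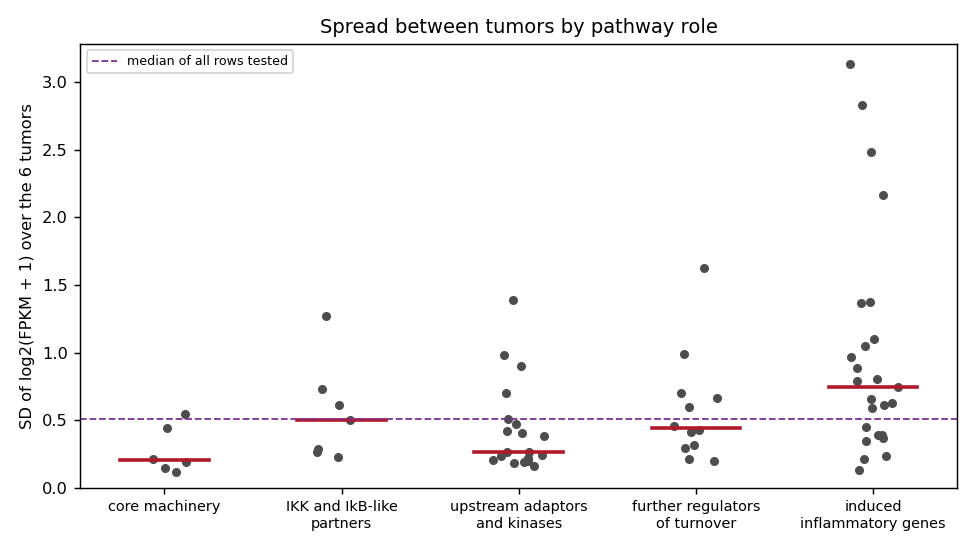
SD of log2(FPKM + 1) over the 6 tumors (vertical axis) for each tested gene of the NFκB machinery and the 4 pathway lists (horizontal axis). Each point is a gene, the short red lines are list medians and the dashed line is the median of all tested rows, 0.508. The 6 NFκB genes lie between 0.12 and 0.54, while the induced genes reach 3.13.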

How the data were processed

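Total RNA of each tumor was made into a TruSeq library and read on a Genome Analyzer IIx. The authors aligned the reads with Bowtie 2 and TopHat 2, quantified transcripts with Cufflinks 2 and deposited FPKM, with 1 column per tumor. The submitters' processing notes name a human build, hg19, for these rat data, and the rat build is not given in the sources used here. The table holds no read counts, so the depth per tumor is unknown and no counting error can be given. FPKM summed to between 651322 and 1025231 per library. 

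Rows averaging 1 FPKM or more over the 6 tumors (10749) were put on the log2(FPKM + 1) scale. Digitoxin was tested against vehicle in R 4.3.3 by limma 3.58.1 (lmFit and moderated variances with a mean trend), two-sided, with Benjamini-Hochberg adjustment over all of them. A fold change on this scale understates that of low genes. SD values and ratios were computed with Python 3.11.15, numpy 2.4.6 and pandas 2.3.3 and plotted with matplotlib 3.10.9. The fit was tested on simulated data. The methods of the study describe Cuffdiff, which needs the reads.

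Groups came from the labels, and directions hold for the libraries as labelled. The labels of A1 and B9 were questioned in earlier work on these data, which was not settled here, and a fit without both was made. Same-numbered tumors deviated together (r = 0.426, 0.606 and 0.869 for numbers 1, 2 and 3), although nothing in the labels ties them and tumors of unlike number also correlated, A1 with B9 (0.644) and A6 with B5 (0.612). A fit with the number as a block is among the 15 alternatives, with another pseudocount (0.1), no filter, no variance trend, the ratio of group means (no test), median-of-ratios scaling, each tumor left out, replicate 3 left out, the kind of tumor as a term, and A1 and B9 left out.

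All 6 genes are named, with the 2 highest and 2 lowest log2 fold changes of each list and the 3 nearest profiles per gene. Tnip1 and Csf1 (for groups apart), Cfb, Gadd45b, Ccl5, Sod2, Nfkbiz, Ccl2, Btrc and Skp1 were named after their values were seen. The genes and lists were chosen with earlier results of these data known. Promoters came from RefSeq GRCr8, a different source of positions from the table's.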

Additional observations from a re-analysis of the deposited data

How the results depend on the processing

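Of the 15 alternatives, 14 give a p (the ratio of group means gives none), and in none of these did any of the 6 NFκB genes pass a p of 0.05, adjusted or not. The smallest unadjusted p was 0.0725 and the smallest adjusted p 0.255, both from limma for Nfkb2 without A12. Among the alternatives that could move the estimates, the direction of the small differences was not stable except for Rela. With median-of-ratios scaling, Nfkbia (0.14), Nfkbie (0.00445) and Ikbkb (0.0808) turned positive, and 1 of the 6 genes was lower. Leaving tumors out moved the log2 fold change of Nfkb2 between -0.58 and 0.0580, Nfkbia between -0.21 and 0.0557, Nfkbib between -0.12 and 0.0785, Nfkbie between -0.51 and 0.18 and Ikbkb between -0.22 and 0.014, and the number of lower genes among the 6 between 1 and 5; A6 left out gave 1. Rows with an adjusted p under 0.05 numbered 0 to 2 when tumors were left out, 2 without B14 and 2 without replicate 3. Rows with an unadjusted p under 0.05, 36 as reported, numbered 133 with no filter, 446 with the replicate block, 425 with the kind of tumor as a term, 11 without A1 and B9, and 13 to 2114 with tumors left out (2114 without A12, 1183 without replicate 3, 13 without A6 or B9 and 19 without B5). The replicate block gave no adjusted call; among the pathway genes it put Itch, Cul1, Cxcl2 and Ccl2 under an unadjusted p of 0.05. Of the 63 genes tested in the pathway lists, 13 (20.6%) had an unadjusted p under 0.05 without A12, against 19.7% of all rows, and 10 (15.9%) without replicate 3, against 1183 of all 10749 rows. Without A6, none of the 63 did. The cause of these shifts was not tested. The lower genes numbered 3 of the 7 IKK partners without B9, and 3 without A1 and B9. With 3 tumors per group and no read counts, the intervals of the 6 genes reach from 0.418-fold to 1.87-fold, both ends for Nfkbie.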
